A study of Mus musculus with 8 samples.

Results

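Binding of MBD5 and MBD6 to the RNA of 10 basement membrane genes (Hspg2, Lama1, Lama5, Lamb1, Lamc1, Col4a1, Col4a2, Nid1, Agrn and Sparc) was examined by CLIP–seq in mouse embryonic stem (mES) cells. CLIP–seq sequences the RNA fragments that UV light crosslinks to a protein and that are pulled down with it, and a peak is a stretch where these fragments exceed the local background. A peak was given to a gene where its midpoint lay in the gene's body on the same strand. The 10 genes were chosen by the peak counts of Hspg2, which were higher with Flag-MBD5 than with the more deeply sequenced Flag-MBD6 libraries, and by their membership of the same structure. The counts of Hspg2 are therefore given as a description, and no test was made. Peaks lay in 7 of the 10 genes, against 5361 genes with a peak in all, and these genes held 94 of the 29555 peaks.

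The cells were wild-type mES cells that stably overexpressed the coding sequence of human MBD5 or human MBD6 with a 3XFlag tag, under hygromycin selection, in medium with serum, LIF, CHIR99021 and PD0325901. The cells also kept their own mouse proteins, and the sources used here do not say whether a line was 1 clone. Each protein had 2 CLIP libraries and 2 digested inputs, of which the 4 CLIP libraries have peak lists and were analysed. The labels name a Flag antibody for the CLIP samples, as do the study's methods, whereas the extraction text of the same labels lists beads with an MBD6 antibody. The labels give the tissue as embryos and the cell type as an embryonic stem cell line passaged off its feeder cells. Of 10 pluripotent stem cell markers, 9 had a peak. None of 12 markers of primitive and parietal endoderm, which secrete much basement membrane in the embryo, and none of 10 fibroblast markers had a peak in any library. A peak needs both RNA and binding, so these counts do not measure cell types.

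The basement membrane is a thin sheet of extracellular matrix under epithelia, and the early embryo lays it down around the time of implantation. Laminins, each a trimer of an α, a β and a γ chain, assemble into a polymer at the cell surface through integrins and dystroglycan. A network of type IV collagen is laid over it. Nidogens and the heparan sulfate proteoglycans perlecan (encoded by Hspg2) and agrin link both networks. MBD5 and MBD6 belong to the methyl-CpG-binding domain family and associate with the BAP1 complex, which removes ubiquitin from histone H2A. The comparison of the 2 proteins asked which RNAs each bound.

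Depth differed between the proteins. The number of reads behind each peak list, estimated from the lowest background rate that the peak caller used, was 478790 and 500143 for Flag-MBD5 replicates 1 and 2, and 983918 and 1111742 for the Flag-MBD6 replicates. The lists held 5362 and 5388 peaks with Flag-MBD5 and 9218 and 9587 peaks with Flag-MBD6. Both libraries of a protein agreed within sampling noise, differing by less than it, with a chi-square per degree of freedom of 0.496 for Flag-MBD5 and 0.416 for Flag-MBD6 against 3.74 to 4.39 between the proteins, and each protein was counted as 1 sample. Values are given for each library, and the spread between the libraries of a protein may be technical. Summit reads are the whole number of reads at the highest point of a peak, recovered from the deposited fold enrichment and p-value, and RPM values divide them by the estimated depth, times 1000000. Intervals are 95% Poisson intervals and cover counting error only.

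The sequences below show what was recovered from the transcripts. Each is the stretch of 30 nt of the GENCODE M21 transcript that starts at the 5′ end of the strongest peak of a site, on the sense strand, with the dinucleotide CG in capitals because the methyl-CpG-binding domain is named for it. The first 6 are coding sites of Hspg2 with a peak in both Flag-MBD5 libraries and none in either Flag-MBD6 library, and the seventh and eighth are the Hspg2 site with the most reads and the Hspg2 site found in all 4 libraries. The others are the sites with the most reads in Lama5, Lamc1, Nid1, Lama1, Sparc and Agrn. Each name gives the exon of the main transcript.
Hspg2 exon 23: ttctcttccttccacaacctcctgtctgaa
Hspg2 exon 26: gctgtgccagagaacacCGgccaggactca
Hspg2 exon 42: tgcagccctcCGaCGcCGgCGtctacatct
Hspg2 exon 51: aatcctCGtcctcccaCGtggcCGaaggac
Hspg2 exon 59: aactgcctggttgccagcctcaccccccac
Hspg2 exon 64: cagCGttctgagcagctctggccctctgga
Hspg2 exon 73: aaccctccacccaccatccactggtccaag
Hspg2 exon 69: agggagcaaCGcccatcaaggttgagtgga
Lama5 exon 28: atctagccatcttctacctggactctgagg
Lamc1 exon 23: aagcaaataaaatcaagaaagaagctgcag
Nid1 exon 4: cagatgtgaacctggacctggaCGaCGatg
Lama1 exon 55: attaacagaaggaaagaCGatCGacatatc
Sparc exon 6: acaacaagaccttCGactcttcctgccact
Agrn exon 18: agCGatcttcagggaatctggcagcaccaa
In mm10 coordinates the Hspg2 sites of exons 23, 59, 73 and 69 lie at chr4:137518738-137518887, chr4:137544647-137544821, chr4:137553177-137553453 and chr4:137551151-137551317 on the plus strand. The Lama5 site lies at chr2:180194404-180194560 and the Lamc1 site at chr1:153228944-153229187, both on the minus strand, and the Nid1 site at chr13:13468304-13468491 on the plus strand. Some of the windows held several CG and some, among them those with the most reads in Hspg2, Lama5 and Lamc1, held none.

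Hspg2 encodes perlecan, a very long core protein that carries heparan sulfate chains. With Flag-MBD5 it had 11 and 15 peaks, and with Flag-MBD6 it had 4 and 3, so that every Flag-MBD5 count lay above every Flag-MBD6 count although the Flag-MBD6 libraries were deeper. The mean difference of 9.5 peaks was the largest of the 5361 genes with a peak, over which the median difference was -0.5. Both Flag-MBD5 counts exceeded both Flag-MBD6 counts in 1.77% of genes with a peak (95 of 5361), and the reverse held in 33.7% (1804 of 5361). Among the 1097 genes with at least 8 peaks summed over the libraries, the shares were 3.56% and 50.0%. These shares depended on the number of peaks called, and with equal numbers of peaks per library they were 10.3% and 14.0% of genes with a peak. The count of Hspg2 chose the set, and nothing further is read from it.

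The peaks of Hspg2 merged into 18 sites along the gene (chr4:137468769-137570630, plus strand, 97 exons), from exon 8 to the 3′ UTR in exon 97. Of these, 10 were found in both Flag-MBD5 libraries and 1, in exon 69, was also found in both Flag-MBD6 libraries. The site in exon 73 had the most reads. Its summit held 42 reads (interval 30.3 to 56.8) and 43 reads (31.1 to 57.9) with Flag-MBD5, or 87.7 and 86.0 RPM. It held 31 reads (21.1 to 44.0), or 31.5 RPM, in Flag-MBD6 replicate 1 and was not called in replicate 2. On the RPM scale the intervals were 63.2 to 119 and 62.2 to 116 with Flag-MBD5 and 21.4 to 44.7 in Flag-MBD6 replicate 1. The counts of Hspg2 chose the set, so no difference is read from these intervals, which also leave out the local background. The site in exon 69 held 31.3 and 38.0 RPM with Flag-MBD5 and 14.2 and 14.4 with Flag-MBD6. The intervals of both proteins overlapped there, and each value came from 14 to 19 reads.

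**Figure D1:**
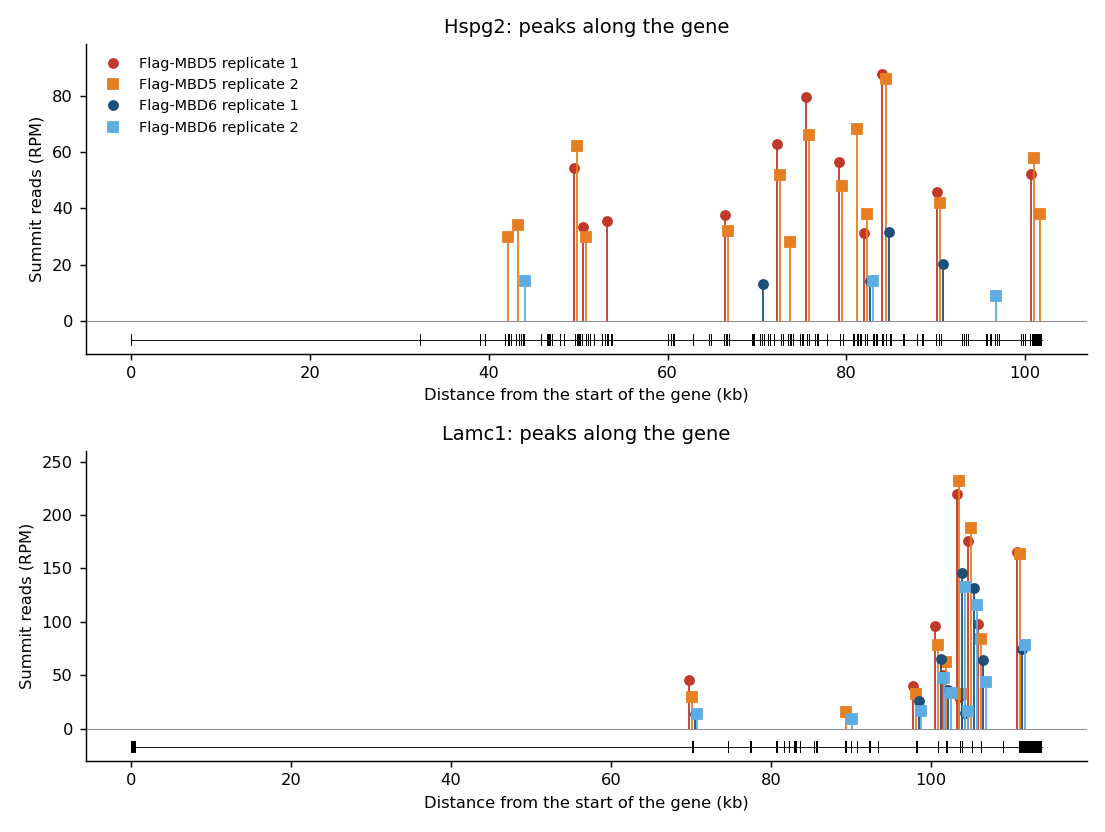
Summit RPM (vertical axis) of each peak of Hspg2 (top) and Lamc1 (bottom) against distance from the start of the gene in kb, with exons as black bars and the libraries in 4 colours, set slightly apart sideways so that they can be told apart. In Hspg2 most sites carry Flag-MBD5 symbols alone, with 87.7 and 86.0 RPM at the strongest site, whereas in Lamc1 every site carries symbols of both proteins.

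Summed over the peaks of Hspg2, summit RPM were 576 and 712 with Flag-MBD5 and 79.3 and 37.8 with Flag-MBD6. The fold enrichment over local background of its peaks had medians of 9.62 and 9.10 with Flag-MBD5 and 7.23 and 8.23 with Flag-MBD6. Fold enrichment adds the same constant to reads and background, which lowers it more at low depth. The called peaks also had to pass a threshold and lay largely at different sites, so the proteins are not compared by these medians. The local background at Hspg2 peaks was high. None of its 33 peaks lay at the lowest background rate of its library, against 38.8% and 38.4% of all Flag-MBD5 peaks and 59.4% and 57.6% of all Flag-MBD6 peaks at that rate. The median background at Hspg2 peaks, as RPM of the reads of the strand, was 3.11 and 6.35 with Flag-MBD5 and 2.83 and 1.37 with Flag-MBD6. Over all peaks it was 1.55, 1.59, 1.15 and 1.15. The part of the background in the counts of Hspg2 was not tested.

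Of the 10 Hspg2 regions found in both Flag-MBD5 libraries, 9 had no region shared by the Flag-MBD6 libraries and 7 overlapped no Flag-MBD6 peak at all. These 7 lay in exons 23, 26, 42, 51, 59, 64 and 97. In exon 59 the summit held 79.4 and 66.0 RPM with Flag-MBD5, in exon 51 it held 62.7 and 52.0, in exon 64 it held 56.4 and 48.0, and in exon 26 it held 33.4 and 30.0. The peak lists do not give the Flag-MBD6 reads at places without a peak, so an upper limit for these sites cannot be stated, and the Flag-MBD6 background there is unknown.

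The laminin chains did not share the pattern of Hspg2 as a group. Lama5, whose product is the α5 chain, had 4 peaks in each Flag-MBD5 library, 1 in Flag-MBD6 replicate 1 and 0 in replicate 2. Both Flag-MBD5 counts lay above both Flag-MBD6 counts, as in 1.77% of all genes with a peak (95 of 5361). With equal numbers of peaks per library this share was 10.3%. The mean difference of Lama5 was 3.5 peaks, and 8 of the 5361 genes had a difference that high. The Lama5 peaks merged into 6 sites over coding exons 5 to 62, of which 4 were seen in a single Flag-MBD5 library. The site in exon 28 held 22 reads (13.8 to 33.3) and 18 reads (10.7 to 28.5) with Flag-MBD5 and was not called with Flag-MBD6. The site in exon 5 held 23.0 and 22.0 RPM with Flag-MBD5 and 13.2 in Flag-MBD6 replicate 1, with overlapping intervals. Summed over its peaks, Lama5 had 140 and 116 summit RPM with Flag-MBD5 and 13.2 in the Flag-MBD6 library with a peak. The median background at its peaks was 4.16 and 3.56 RPM with Flag-MBD5 and 1.24 at the Flag-MBD6 peak, and its part in the counts was not tested.

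Lama1 encodes the α1 chain, an α chain of early embryonic laminin. It had 2 and 1 peaks with Flag-MBD5 and 1 and 1 with Flag-MBD6, so that the counts overlapped. Its site in exon 55 was called in 3 libraries, with 11 reads (5.49 to 19.7) in Flag-MBD5 replicate 1 and 14 and 18 reads with Flag-MBD6, or 23.0, 14.2 and 16.2 RPM. Its site in exon 5, with 10 and 12 reads, was called with Flag-MBD5 only. Lamb1, which encodes the β1 chain, had no peak in any library.

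Lamc1 encodes the γ1 chain, which most laminins contain, and it had the most peaks for its length. The gene had 9 and 10 peaks with Flag-MBD5 and 9 and 10 with Flag-MBD6, with no difference of the means. For each kb of transcript this was 1.25 peaks with either protein, against 0.917 with Flag-MBD5 and 0.247 with Flag-MBD6 for Hspg2 and 0.351 and 0.0439 for Lama5. Its 10 sites lay in coding exons from 2 to 28, and 9 of them were called in all 4 libraries and formed regions of both proteins. The strongest, in exon 23, held 105 reads (85.9 to 127) and 116 reads (95.9 to 139) with Flag-MBD5 and 143 reads (121 to 168) and 147 reads (124 to 173) with Flag-MBD6. Scaled to depth these were 219 and 232 RPM with Flag-MBD5 and 145 and 132 with Flag-MBD6, and the intervals of the proteins did not overlap. The log2 ratio of Flag-MBD5 over Flag-MBD6 was 0.70 here. Over all 3566 sites called in all 4 libraries the upper quartile was 0.69, so this ratio is not particular to Lamc1. The next, in exon 25, held 175 and 188 RPM with Flag-MBD5 and 132 and 116 with Flag-MBD6. Summed over the gene, Lamc1 had 919 and 918 summit RPM with Flag-MBD5 and 570 and 506 with Flag-MBD6.

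**Figure D2:**
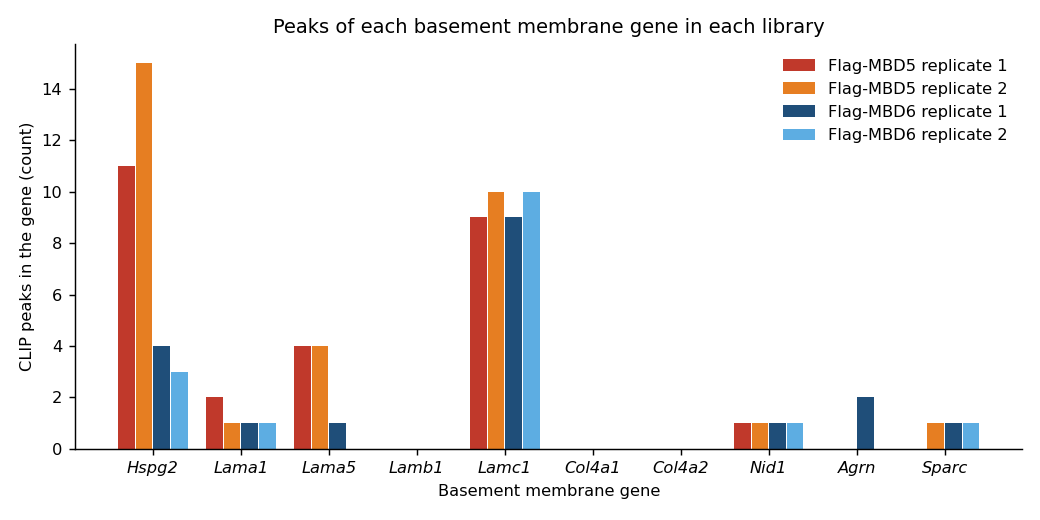
Number of CLIP peaks (vertical axis, count) in each of the 10 basement membrane genes, with 1 bar for each of the 4 libraries. Hspg2 has 11 and 15 peaks with Flag-MBD5 against 4 and 3 with Flag-MBD6, Lamc1 has 9 and 10 with each protein, and Lamb1, Col4a1 and Col4a2 have none.

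Col4a1 and Col4a2, which encode the chains of the most widespread type IV collagen and lie head to head on opposite strands of chromosome 8 (chr8:11198423-11312826 and chr8:11312805-11449287), had no peak in any library. Their coding sequences of 5007 and 5121 bases are longer than that of Lamc1, which has 4821. Nid1, which encodes the linker nidogen-1, had 1 peak in every library, at the same site in exon 4. The site held 58.5 and 72.0 RPM with Flag-MBD5 and 45.7 and 39.6 with Flag-MBD6, from 28 to 45 reads, with overlapping intervals. The background at this site was 4.66 and 6.35 RPM with Flag-MBD5 and 2.78 and 1.83 with Flag-MBD6. Agrn, which encodes agrin, had 2 peaks in Flag-MBD6 replicate 1, in exons 8 and 18 with 19 and 23 reads, and none in the other libraries. Sparc, which encodes a collagen-binding protein of the matrix, had 1 peak in Flag-MBD5 replicate 2 and 1 in each Flag-MBD6 library. Its site in exon 6 held 18 reads in Flag-MBD5 replicate 2 and 16 in Flag-MBD6 replicate 2, and the Flag-MBD6 replicate 1 peak lay in exon 8. Neither Agrn nor Sparc had a site called in both libraries of a protein.

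Across the 10 genes, 2 (Hspg2 and Lama5) had both Flag-MBD5 counts above both Flag-MBD6 counts, and 5 with peaks had overlapping counts. None had the reverse, which held in 33.7% of all genes with a peak (14.0% with equal numbers of peaks per library). Leaving Hspg2 out, both Flag-MBD5 counts lay above in 1 of the 6 other genes with a peak (Lama5). Such counts held in 1.77% of all genes with a peak, and in 3.56% of those with at least 8 peaks. A single gene does not set these shares apart. The 9 genes together had 2.5 more peaks with Flag-MBD5 in the mean, to which Lama5 contributed 3.5, while Agrn and Sparc lowered the sum. The sum rose to 7.5 when each library gave equally many peaks. Lamc1 then also had both Flag-MBD5 counts above, but so had 10.3% of all genes with a peak. It was 7.5 as well with only peaks of at least 10 summit reads after scaling to the lowest depth. Under that rule Lamc1 and Lama1 were both added, where 11.0% of all genes with such a peak had both Flag-MBD5 counts above. In regions, the 10 genes held 23 of 4019 MBD5 regions and 12 of 7484 MBD6 regions. Hspg2, whose counts chose the genes, held 10 of these MBD5 regions and 1 of these MBD6 regions. Of the 23, 12 had no overlapping MBD6 region (9 in Hspg2, 2 in Lama5 and 1 in Lama1), and the 9 of Hspg2 belong to the values that chose the genes. Without Hspg2 it was 3 of 13 MBD5 regions, where 401 of 4019 regions (9.98%) had none over all genes. A single MBD6 region of 12, in Lama1, had no MBD5 region, where over all genes 3917 of 7484 (52.3%) had none. Of these 12 regions, 9 lay in Lamc1 and 1 in Hspg2, whose counts chose the genes, so no difference is read from this share.

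**Figure D3:**
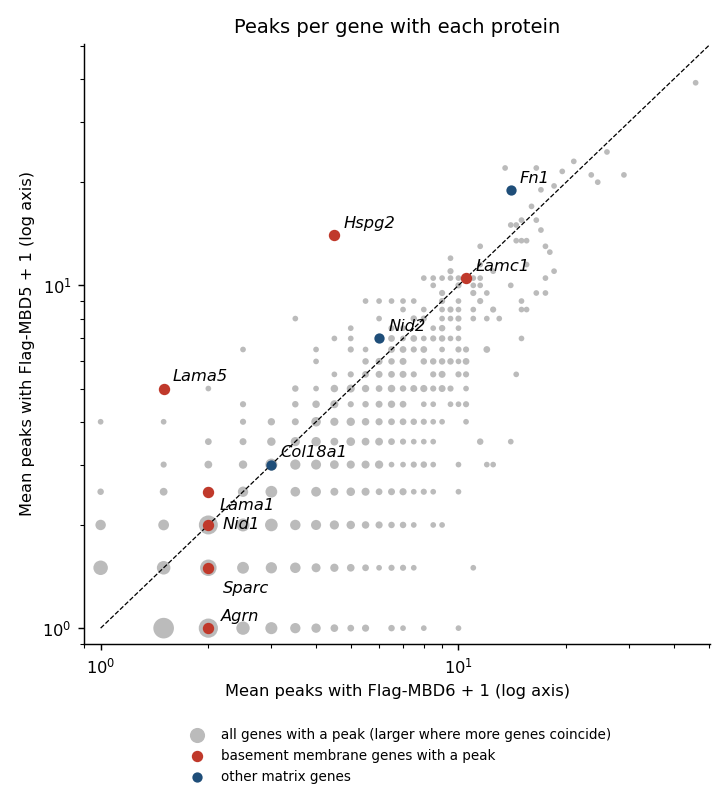
Mean number of peaks per gene with Flag-MBD6 (horizontal) and Flag-MBD5 (vertical), each plus 1 on a log axis, for all 5361 genes with a peak (grey), the basement membrane genes with a peak (red) and 3 other matrix genes (blue), with the line of equal counts dashed. Hspg2 and Lama5 lie well above the line, Lama1 a little above it, Lamc1 and Nid1 on it, and Sparc and Agrn below it.

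A list of 30 other basement membrane genes had few peaks, which lay in 6 of them. Nid2, which encodes nidogen-2, had 6 and 6 peaks with Flag-MBD5 and 5 and 5 with Flag-MBD6, and was the only gene of the list whose Flag-MBD5 counts both lay above. It had 253 and 248 summit RPM with Flag-MBD5 and 111 and 106 with Flag-MBD6. Col18a1, whose product carries endostatin, had 2 peaks in every library. Ntn1, which encodes netrin-1, had 1, 1, 1 and 2. Col4a3 had 1 peak in every library but Flag-MBD5 replicate 1, and Lama3 had a single peak, in Flag-MBD6 replicate 1. Of the 6 with a peak, none had both Flag-MBD6 counts above. Over all genes with a peak, Flag-MBD5 was above in 1.77% and Flag-MBD6 in 33.7%. With equal numbers of peaks per library these shares were 10.3% and 14.0%. Of 20 interstitial matrix genes, 2 had a peak, with Flag-MBD5 above in Fn1 and Flag-MBD6 above in Vcan. Fn1, which encodes fibronectin, had 17 and 19 peaks with Flag-MBD5 and 13 and 13 with Flag-MBD6, and 1126, 1232, 503 and 488 summit RPM in the same order.

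Of 20 matrix receptor genes, 8 had a peak. Flag-MBD5 was above in 1, the integrin gene Itga5 with 1 peak against none, and Flag-MBD6 in 3, Itgb1, Itga6 and Sdc4. Over all genes with a peak, Flag-MBD5 was above in 1.77%. Itgb1 and Itga6 encode the chains of a laminin-binding integrin. Itgb1 had 1 and 2 peaks with Flag-MBD5 and 3 and 3 with Flag-MBD6, and Itga6 had 0 and 1 against 3 and 2. Dag1, which encodes dystroglycan, had 1 peak in every library. Of 22 genes for enzymes and chaperones of matrix biosynthesis, 14 had a peak, and Flag-MBD5 was above in none and Flag-MBD6 in 4 (Pdia3, Hspa5, Hs2st1 and Mia3). Mia3, which loads collagen into carriers that leave the endoplasmic reticulum, had 4 and 5 peaks with Flag-MBD5 and 7 and 9 with Flag-MBD6. P4hb, a subunit of the enzyme that hydroxylates collagen prolines, had 6, 7, 5 and 6 peaks, and Hspa5, the chaperone BiP, had 4, 3, 6 and 5. The Flag-MBD6 counts thus lay above in 3 of 8 receptor genes and 4 of 14 biosynthesis genes with a peak, where 33.7% of all genes with a peak had such counts (14.0% with equal numbers of peaks per library), and in 5 of the 9 pluripotency markers with a peak.

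By the difference of mean counts, the genes most like Hspg2 among those with both Flag-MBD5 counts above, over the 4 libraries, were Iqgap1 (8.5), Sptbn1 (5.5), Fn1 (5.0), Myo18a (4.5), Ece1 (4.0), Lama5 and Plec (3.5 each), and Gaa and Prpf8 (3.0 each). Iqgap1, a cytoskeletal scaffold, had 20 and 22 peaks with Flag-MBD5 and 10 and 15 with Flag-MBD6, so Hspg2 and Iqgap1 differed by less than the spread between the Flag-MBD6 libraries of Iqgap1. Sptbn1, a β-spectrin, had 19 and 23 peaks against 16 and 15. Ece1, which encodes endothelin-converting enzyme, had 5 and 6 against 2 and 1.

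Levels could be compared between the proteins at sites called in all 4 libraries, of which there were 3566. Such a site had to be called in the shallower Flag-MBD5 libraries too, which takes a higher RPM there. The log2 ratio of summit RPM, Flag-MBD5 over Flag-MBD6, had a median of 0.34 over all of them, with quartiles of -0.05 and 0.69. RPM values were at least 2 times higher with Flag-MBD5 at 9.96% of the sites (355 of 3566). The 9 Lamc1 sites had log2 ratios of 0.55 to 1.51, with a median of 0.75, and 3 of them were at least 2 times higher. The Nid1 site had 0.61 and the Hspg2 site in exon 69 had 1.28. Over the 10 sites of members other than Hspg2, which lie in Lamc1 and Nid1 alone, the median was 0.73. Fn1 had a median of 1.15 over 10 sites, with 6 at least 2 times higher, whereas the 2 Col18a1 sites had -0.12 and -0.13. The sites of a gene share their transcript and are not replicates.

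The size of these ratios depended on the scale. Fold enrichment divides by the local background after the same constant is added to reads and background. The constant lowers it more in the shallower Flag-MBD5 libraries. Its ratio had a median of -0.41 over all 3566 sites, 0.02 over the Lamc1 sites and 0.01 over the sites of members other than Hspg2. The ratio was 0.45 at the Hspg2 site and -0.58 at the Nid1 site, where the background ratio was 1.25 on the log2 scale. A Lamc1 site with the same background RPM in all 4 libraries had 0.75 in RPM and -0.02 in fold enrichment. The parts of background and depth in the fold ratios were thus not separated. The median of the Lamc1 sites thus stood above that of all sites by 0.42 in RPM and by 0.43 in fold enrichment. All 9 had a positive ratio in RPM, as had 2585 of all 3566 sites, and in fold enrichment 3 of the 9 were negative.

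**Figure D4:**
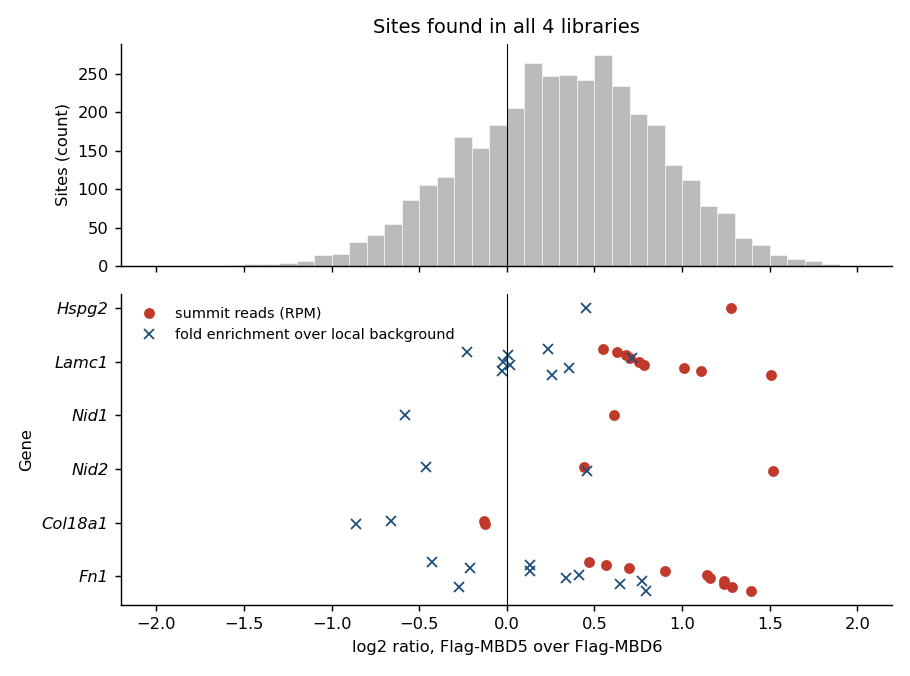
The log2 ratio of Flag-MBD5 over Flag-MBD6 at sites found in all 4 libraries. The upper panel counts all 3566 sites by their ratio of summit RPM, and the lower panel shows the sites of 6 matrix genes as points for RPM and crosses for fold enrichment. The Lamc1 points run from 0.55 to 1.51 while their crosses lie around 0.02, and the Hspg2 site has 1.28 and 0.45.

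The peaks of the basement membrane genes began almost entirely in coding sequence. Judged 15 nt inside the 5′ end, 91 of 94 peaks (96.8%) lay in coding sequence and 3, all in Hspg2 with Flag-MBD5, in the 3′ UTR. Over all protein-coding genes, 88.9% of peaks did so. The 94 peaks are 41 sites in 7 genes, called again in up to 4 libraries, of which 39 lay in coding sequence, so the peaks are not independent and no difference is read from these shares. The members' introns and 5′ UTRs held none by this measure. By library the members' share was 96.3%, 93.8%, 100% and 100%. Reads were aligned without splicing and extended to 150 bases, so a peak of a short exon can run on into an intron. By their midpoints 68.1% of the members' peaks lay in coding sequence, and 42.4% of those of Hspg2. Whether some of these peaks came from intronic RNA was not tested. The median exon of Hspg2 has 136 bases. None of the members' peaks lay in another gene on the same strand.

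RNase T1, which was used to trim the RNA, cuts after G. A G preceded the 5′ end at 75.3% of the 93 member peaks whose window could be read, against 77.2% of 23140 windows over all protein-coding genes. The libraries differed in this, and by library the members had 77.8% and 87.1% with Flag-MBD5 and 68.4% and 56.3% with Flag-MBD6, against 83.3%, 82.8%, 74.1% and 73.4% over all. C made up 29.5% of the bases of the member windows and 20.9% over all. In Hspg2 the share of C was 33.8% and of G and C together 58.2%, where all windows had 46.9% G and C. The coding sequence of Hspg2 as a whole has 60.9% G and C, more than 95.6% of the 4172 protein-coding genes with a peak, and that of Lama5 has 60.2%. The coding sequences of Col4a1 and Col4a2, which had no peak, have 60.4% and 61.5%. A window held CG in 64.5% of member peaks, in 63.6% of Hspg2 peaks, in 56.8% of Lamc1 peaks and in 59.8% of all windows. The windows of a gene overlap between libraries and share its base composition, so these shares are descriptions.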

How the data were processed

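Peak lists of 4 CLIP libraries, 2 for Flag-MBD5 and 2 for Flag-MBD6, were analysed. The 4 inputs were left out as samples. According to the labels and the study's methods, the authors aligned collapsed reads, freed of ribosomal RNA, to mm10 with Bowtie 1.0.0 without splicing, handled alignments with SAMtools 1.16.1 and ran MACS2 separately for both strands, with reads extended to 150 bp and a genome size of 130000000. The deposited values of a peak are its fold enrichment, its −log10 p and −log10 q from the peak caller and a score derived from q. Fold enrichment is the ratio of summit signal over local background, with the same constant added to both. Another deposited column holds the summit's offset. The lists hold no read totals. The peak caller was run with a limit on duplicate reads, and the effect of this on summit reads was not tested. Summit reads and the background rate were solved from fold enrichment and −log10 p, within a tolerance of 0.002, and every peak had a solution. The lowest rate times genome size over extension gave the depth of a strand.

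Peaks were assigned by midpoint to same-strand gene bodies of GENCODE M21 (mm10). Sites are overlapping peaks of any library (1 bp), and regions are merged peaks that occur in each library of 1 protein. Coding positions refer to 1 main transcript per gene, and sequences come from the GENCODE transcripts. The members and lists were chosen with earlier results of these data known. All 10 members were named, list genes with a region, the 10 genes with the largest mean difference, and each member's strongest and Flag-MBD5-only sites. Itga5, Sdc4 and Lama3, outside this rule, were added after their values were seen. No test was made, as each protein counted as 1 sample. The alternatives were another q, fold, position, overlap or strand rule, equal numbers of peaks, other scalings and each library left out. The recovery of reads, gene counts and regions was tested on simulated data. For reads this left out simulated peaks of low fold enrichment. It therefore does not cover peaks such as those of Hspg2 exon 23, with fold enrichments of 4.33 and 3.86 with Flag-MBD5. Python 3.11.15, pandas 2.3.3, numpy 2.4.6 and SciPy 1.17.1 were used.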

Additional observations from a re-analysis of the deposited data

How the results depend on the processing

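With q under 0.001, a fold enrichment of at least 4, strand ignored, a reciprocal overlap of 50%, or peaks placed by summit, by any overlap or by a midpoint in an exon, the counts of peaks and regions of the 10 genes kept their direction and stayed within 1.5 times. With equally many peaks taken per library, ranked by q, the Hspg2 difference moved to 13 peaks, that of the other members to 7.5, and their MBD5 regions without an MBD6 region to 5. Lamc1 then also had both Flag-MBD5 counts above (9 and 10 against 7 and 7), but so had 10.3% of all genes with a peak. An alternative added after seeing the data kept only peaks of at least 10 summit reads after scaling to the lowest depth. With it, 4 members had both Flag-MBD5 counts above, against 11.0% of all genes with such a peak. They were Hspg2, whose counts chose the set, and Lama1, Lama5 and Lamc1. The differences were then 12.5 for Hspg2 and 7.5 for the other members. The other members had 6 MBD5 regions without an MBD6 region, and the members had 7 MBD6 regions. Scaling depth by the median summit reads at shared sites gave log2 ratios of 1.05 for Hspg2 and 0.50 for the other members, and fold enrichment in place of reads gave 0.45 and 0.012. The coding share was 68.1% by midpoint and 80.9% by summit. The Hspg2 site had under 20 reads, so that stricter minimum gave no value for it.

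Leaving out each library in turn gave 7 to 14 Hspg2 regions without an MBD6 region (14 without Flag-MBD5 replicate 1), 2 to 7 for the other members (7 without Flag-MBD5 replicate 1 and 5 without replicate 2), and 12 to 19 member MBD6 regions (19 without Flag-MBD6 replicate 2). With a single library left for a protein, a region needs only that library. No direction reversed. No paired analysis was possible because the results come from no test. Depth limits what a missing Flag-MBD6 peak says, as the lists give no reads where no peak was called.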
